A study of Caenorhabditis elegans with 2 samples.

Results

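These results cover the regions of strong signal on the X chromosome in a ChIP-seq map of eGFP-tagged ZTF-1, a zinc finger protein, in Caenorhabditis elegans larvae. The regions were selected on measured values. Entries of the deposited ranked list that joins both replicates were kept where the authors' peak signal, which has no stated unit, was 50 or more, and overlapping entries were merged. The position of highest signal, the summit, was taken from the highest entry of each. This gave 7175 regions, of which 1149 lay on X and 6026 on the autosomes. The 1149 X regions are described here beside the autosomal ones.

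Both samples were whole L2 larvae of strain OP207 at 28.5 hours, grown from L1 larvae that had been starved after bleaching. They carried the integrated fosmid transgene wgIs207, which holds ztf-1 fused to 2XTY1, eGFP and 3XFLAG tags together with unc-119. Chromatin sonicated to 200 to 800 bp was precipitated with an antibody against GFP in 2 biological replicates. The study has 1 group, so no condition can be compared, and regions of the same samples are not replicates of each other. Every share below is therefore a description without a test, with an exact Clopper-Pearson 95% interval that covers counting error only. For a count of 0, no interval is given but the share that 3 counts of the total would make, as the limit that a count of 0 allows. The map averages over all cells of the larvae and shows the tagged copies of the protein, and no untagged or input sample was analysed here.

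The X chromosome of C. elegans is present as a pair in hermaphrodites and alone in males. In hermaphrodites a condensin-based dosage compensation complex binds along both X chromosomes and lowers their transcription. The complex is recruited by SDC-2 at recruitment elements on X that carry clusters of a motif containing the letters CGCAGGG, and it spreads from there to other sites, many of them at active promoters. X also differs from the autosomes in what it carries: genes of somatic tissues are common on it, germline genes are scarce, and tRNA genes are numerous.

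Sequences at 10 of the regions are shown first, chosen mainly because they carry, outside exons, at least 1 of the 2 words marked below. They are not typical of the strongest regions: 6 of the 25 strongest hold a marked word, and the regions at ftt-2 and xol-1 are examples without one. Each line gives a summit with 50 bp on either side, from the plus strand of assembly ce11 as held in the RefSeq copy of WBcel235. Capitals mark CGCAGGG and GCGNAGGG on either strand (N stands for any base), and these 2 words overlap wherever GCGCAGGG occurs. CGCAGGG is part of the recruitment motif above, and it was chosen with earlier results of these data known. GCGNAGGG was added after the sequences of the strongest regions had been seen. Of the 2 words, the fbxb-58, F55G7.5 and ZK899.6 sequences hold only GCGNAGGG. The rank is that among X regions.
F20B6.9, rank 1, chrX:4209219-4209319: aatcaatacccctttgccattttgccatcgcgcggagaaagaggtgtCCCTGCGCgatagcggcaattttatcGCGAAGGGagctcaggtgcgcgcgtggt
mom-1 intron, rank 2, chrX:6296469-6296569: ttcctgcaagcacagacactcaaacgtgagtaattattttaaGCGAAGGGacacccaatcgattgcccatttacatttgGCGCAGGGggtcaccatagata
W02H3.3, rank 3, chrX:11094112-11094212: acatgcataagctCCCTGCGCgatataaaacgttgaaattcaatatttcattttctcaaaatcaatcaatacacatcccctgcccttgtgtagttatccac
ftt-2, rank 4, chrX:11606052-11606152: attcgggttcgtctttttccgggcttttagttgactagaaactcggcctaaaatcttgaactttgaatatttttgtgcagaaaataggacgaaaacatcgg
xol-1, rank 7, chrX:8036449-8036549: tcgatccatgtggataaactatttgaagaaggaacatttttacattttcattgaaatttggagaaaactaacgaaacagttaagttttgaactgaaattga
T27A8.7, rank 13, chrX:16056494-16056594: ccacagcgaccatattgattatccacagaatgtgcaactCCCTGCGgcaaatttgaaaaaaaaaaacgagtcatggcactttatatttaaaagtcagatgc
fbxb-58, rank 21, chrX:1627050-1627150: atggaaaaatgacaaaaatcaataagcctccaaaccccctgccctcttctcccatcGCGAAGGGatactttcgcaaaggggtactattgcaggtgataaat
F55G7.5, rank 22, chrX:11937408-11937508: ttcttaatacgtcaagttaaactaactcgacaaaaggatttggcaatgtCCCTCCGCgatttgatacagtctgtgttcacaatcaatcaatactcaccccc
ZK899.6, rank 33, chrX:9465846-9465946: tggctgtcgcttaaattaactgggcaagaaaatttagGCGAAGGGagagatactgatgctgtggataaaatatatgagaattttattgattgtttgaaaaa
gtr-1, rank 54, chrX:806660-806760: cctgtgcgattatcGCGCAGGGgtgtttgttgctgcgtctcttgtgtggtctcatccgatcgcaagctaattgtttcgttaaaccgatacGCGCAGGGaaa

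The highest X summit lay between genes, 1784 bp upstream of the start of F20B6.9, with a signal of 197.8. It took place 5 among the regions of all chromosomes, with 120.2 in replicate 1 and 79.73 in replicate 2. The next lay in an intron of mom-1, which encodes a porcupine family enzyme of Wnt secretion, with 155.6, against 78.04 in replicate 1 and 70.67 in replicate 2. The third lay 4024 bp downstream of the start of W02H3.3, with 148.2, and had 66.72 in replicate 1 and 78.08 in replicate 2. These were the strongest X regions, and each holds CGCAGGG within 100 bp centred on its summit. The fourth had a signal of 144.4 and lay 683 bp upstream of ftt-2, a gene for a 14-3-3 adaptor protein, with 4 genes of the Ensembl class ncRNA within 100 bp.

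**Figure D1:**
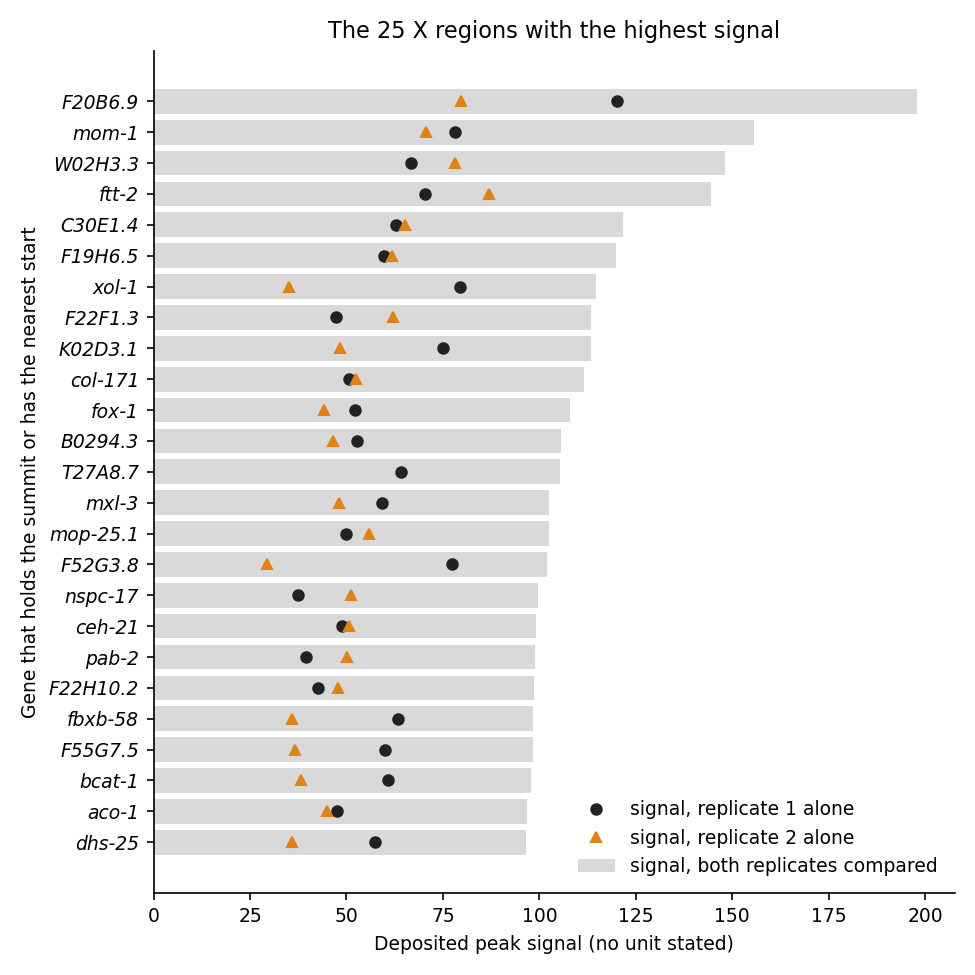
Deposited peak signal (horizontal axis, no unit stated) of the 25 X regions with the highest signal, each named by the gene that holds its summit or, between genes, by the nearest start. Grey bars give the signal in the list that joins both replicates, circles that in replicate 1 alone and triangles that in replicate 2 alone. The bars run between 197.8 at F20B6.9 and 96.44 at dhs-25, and replicate 1 lies above replicate 2 in 13 regions. No entry of replicate 2's own ranked list holds the T27A8.7 summit, although that region overlaps the thresholded list of the replicate comparison.

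Below these, summits lay 6058 bp from the start of C30E1.4 (signal 121.8), 1658 bp from F19H6.5 (119.9), 724 bp upstream of F22F1.3 (113.5) and 6049 bp upstream of K02D3.1 (113.3). A summit with 114.8 lay 4814 bp upstream of xol-1, the X-linked switch gene of sex determination, beside a tRNA gene and the ncRNA gene C18A11.13. This region was far stronger in replicate 1, with 79.35, than in replicate 2, with 35.12. In coding sequence, the strongest were in the cuticle collagen gene col-171 (111.6), in fox-1 (108.0), which encodes an RNA-binding protein that acts as an X signal element, and in mxl-3 (102.6), a Max-like bHLH transcription factor gene. An intron of mop-25.1, a scaffold protein gene of the MO25 family, held a summit with 102.4, and 1 region near F52G3.8 had 102.0, with 77.4 in replicate 1 and 29.27 in replicate 2.

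Regions with 96.44 to 99.68 completed the strongest 25. They lay 358 bp upstream of pab-2, a poly(A)-binding protein gene (98.82), in an intron of the ONECUT homeobox gene ceh-21 (99.08), and 592 bp upstream of bcat-1, a branched-chain aminotransferase gene (97.73). Others lay in an intron of aco-1, the cytosolic aconitase gene (96.7), in coding sequence of the dehydrogenase gene dhs-25 (96.44), and near nspc-17 (99.68), F22H10.2 (98.74), fbxb-58 (98.45) and F55G7.5 (98.33). Of the 25, 13 summits were intergenic, 4 intronic and 4 in coding sequence. 3 lay within 500 bp of a gene start, and 24 were held by an entry in each replicate's own ranked list.

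Over all members the signal had a median of 58.75, with quartiles of 54.25 and 66.34, against a median of 58.72 on the autosomes with quartiles of 53.78 and 66.51. Since the rule used this value, that is a description of the choice. Just inside the minimum were summits near ZK470.2 and in cwp-5, both with 50.02, and in M60.7 with 50.07. Just outside were summits in mrp-6, an ABC transporter gene, in F46G11.2 and near C04C11.25, each with 49.99. The signal thus ran through the minimum without a gap. The word strong refers only to that minimum: 4 of the 1149 X regions (0.348%) reached a deposited q-value of 0.05, against 22 of 6026 autosomal ones (0.365%), and the median q-value on X was 0.869.

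Few members passed the authors' own threshold on the irreproducible discovery rate (IDR), which measures how well ranked peaks recur in paired lists. On X, 31 regions (2.70%, interval 1.84 to 3.81%) overlapped the list that passed in the comparison of replicates, against 185 on the autosomes (3.07%, 2.65 to 3.54%). In any of the 4 thresholded lists there were 38 X regions (3.31%), against 212 autosomal ones (3.52%). Besides the 25 strongest, these 38 include regions in introns of ucr-2.1, a respiratory complex III gene (93.92), and of unc-96, a muscle gene (93.64). They also include coding sequence of the dynamin gene dyn-1 (93.34) and the 5′ UTR of kin-29, a kinase gene, 15 bp from its start (88.47). The weakest of them lay in an intron of eat-17 with 58.81.

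The replicates' own lists held most, but not all, of the X summits. An entry of replicate 1 held 979 of them (85.2%), one of replicate 2 held 856 (74.5%), both held 718 (62.5%) and neither held 32 (2.79%). The corresponding shares on the autosomes were 84.6%, 76.4%, 63.7% and 2.67%. Among the 718 X regions in both, replicate 1 had a median of 34.12, replicate 2 had a median of 28.13, and replicate 1 was higher in 486 (67.7%). Across those regions the replicates' signals had a Spearman rho of -0.15, and across 3839 autosomal regions it was -0.11. Both replicates entered the joined signal that chose these regions, so the correlations describe the chosen regions and not agreement over the genome.

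X held 16.01% of strong regions (interval 15.2 to 16.9%), beside 17.7% of all 43349 merged regions of the ranked list and 17.7% of the length of the 6 nuclear chromosomes. With all entries merged before the minimum is applied, 1146 of 7671 ranked regions on X reached it, which is 14.9 percent, against 16.8 percent on the autosomes. X had 64.85 strong regions per Mb, the lowest of the 6 chromosomes, against 65.51 on chromosome IV to 87.93 on chromosome III. It also had the lowest density of protein-coding genes, with 154.1 per Mb, against 187.6 to 238.7 on the autosomes. The median distance between neighbouring summits was 10477 bp on X and ran between 6857 and 8831 bp on the autosomes.

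Along X the regions were spread fairly evenly. The first, middle and last of 3 equal parts held 412, 365 and 372 regions. The middle part thus held 31.8% (interval 29.1 to 34.6%) on X, against 28.0% (26.9 to 29.2%) on the autosomes. Ranked regions under the minimum were at 33.2% in the middle part of X and at 34.7% in that of the autosomes. In bins of 1 Mb, the second bin of X held the most regions, 84, and the 13th the lowest number among full bins, 49. The densest 100 kb was chrX:1441001-1541000 with 17 regions and 17 protein-coding genes, among them acly-1 (ATP citrate lyase), cebp-1 (a C/EBP transcription factor), toca-1 and dhs-25, and signals of 50.88 to 96.44. The next, chrX:1311371-1411370, held 15, with summits in pdk-1 (a PDK1 kinase gene), dgn-2 (dystroglycan family) and abu-2. The longest stretch without a strong region ran over 110042 bp, between 8624249 and 8734291, and contained 43 weaker ranked regions and 19 protein-coding genes.

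A larger share of summits lay between genes on X than on the autosomes, and a smaller share in coding sequence. Intergenic summits, over 500 bp from any protein-coding gene, made up 292 of the X regions (25.4%, interval 22.9 to 28.0%) and 914 of the autosomal ones (15.2%, 14.3 to 16.1%). Coding sequence held 390 on X (33.9%, 31.2 to 36.8%) and 2615 on the autosomes (43.4%, 42.1 to 44.7%). Ranked regions under the minimum differed in the same direction, with 28.2% intergenic on X against 20.8% on the autosomes, and 27.7% coding on X against 34.8% on the autosomes. On both X and the autosomes the strong regions thus had a smaller intergenic share and a larger coding share than the weaker ones. For the intergenic share on X, however, the intervals of strong and weaker regions overlap (22.9 to 28.0% and 27.1 to 29.3%). Introns held 26.4% on X and 27.9% on the autosomes, with overlapping intervals (23.8 to 29.0% and 26.8 to 29.0%). The 500 bp before genes held 7.05% on X and 6.19% on the autosomes, and 5′ UTRs held 1.57% on X and 1.63% on the autosomes.

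**Figure D2:**
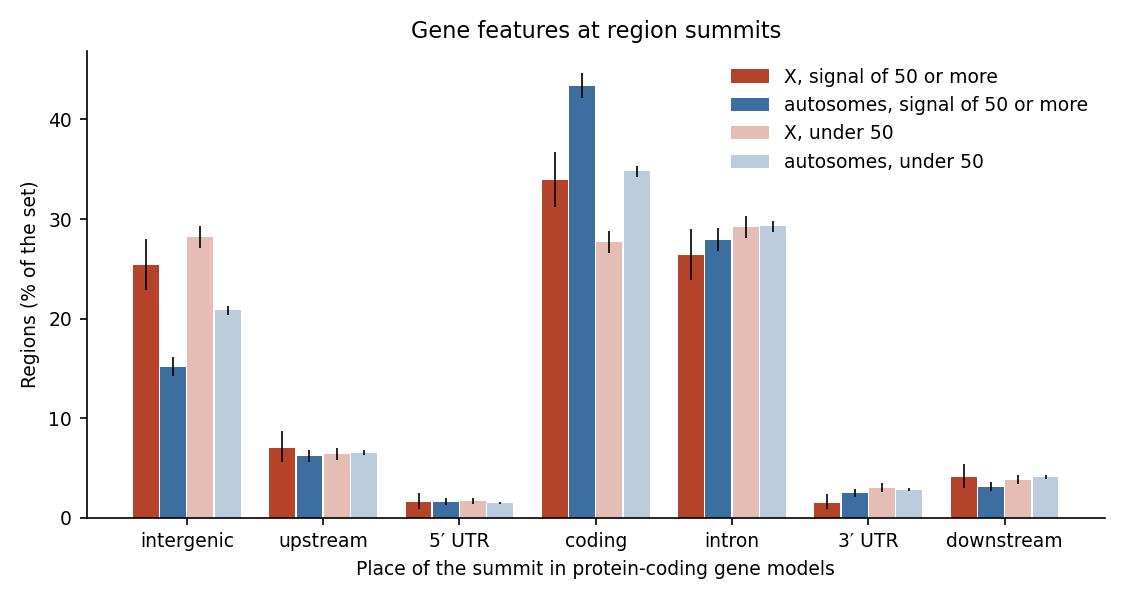
Share of regions (vertical axis, percent of the set) whose summit lay in each feature of the protein-coding gene models (horizontal axis). Dark bars are regions with a signal of 50 or more and pale bars ranked regions under 50, X in red and autosomes in blue; error bars are exact 95% intervals. Intergenic summits stand at 25.4% on X and 15.2% on the autosomes, and coding ones at 33.9% on X and 43.4% on the autosomes.

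A protein-coding gene start lay within 500 bp of 209 X summits (18.19%, interval 16 to 20.54%), against 1249 autosomal ones (20.7%, 19.7 to 21.8%). The X share was below that of each autosome, which ran between 19.1% on chromosome IV and 23.6% on chromosome V, although the intervals of X and chromosome IV overlap. Weaker ranked regions were at a start in 16.5% of cases on X and in 20.3% on the autosomes. To the nearest start, X summits lay at a median of 1869 bp, against 1262 to 1744 bp on the autosomes, and 186 X summits (16.2%) were over 5000 bp away, against 13.96% of autosomal ones. Counting only summits within 500 bp of the nearest start, 86 on X lay upstream of it (7.49%, against 7.62% on the autosomes). Another 123 within that distance lay downstream of it (10.7%, against 13.1% on the autosomes).

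The gap to the autosomes was larger in the classes of higher signal. For signals of 50 to 60, 124 of 645 X summits (19.2%) lay at a start, against 19.3% of 3346 autosomal ones. For 60 to 75 the shares were 17.3% on X and 20.5% on the autosomes, and for 75 to 100 they were 16% on X and 26.4% on the autosomes. At 100 or more, 2 of 16 X summits lay at a start (12.5%, interval 1.55 to 38.4%), against 37 of 89 on the autosomes (41.6%, 31.2 to 52.5%). The intervals of the 4 X classes overlap one another, whereas the highest autosomal class lies above the lowest. The 2 are those in col-171, 464 bp downstream of its start, and in mxl-3, 416 bp downstream. In this highest class 8 of the 16 X summits were intergenic (50%, 24.65 to 75.35%), against 11 of 89 (12.4%, 6.33 to 21.04%) on the autosomes.

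**Figure D3:**
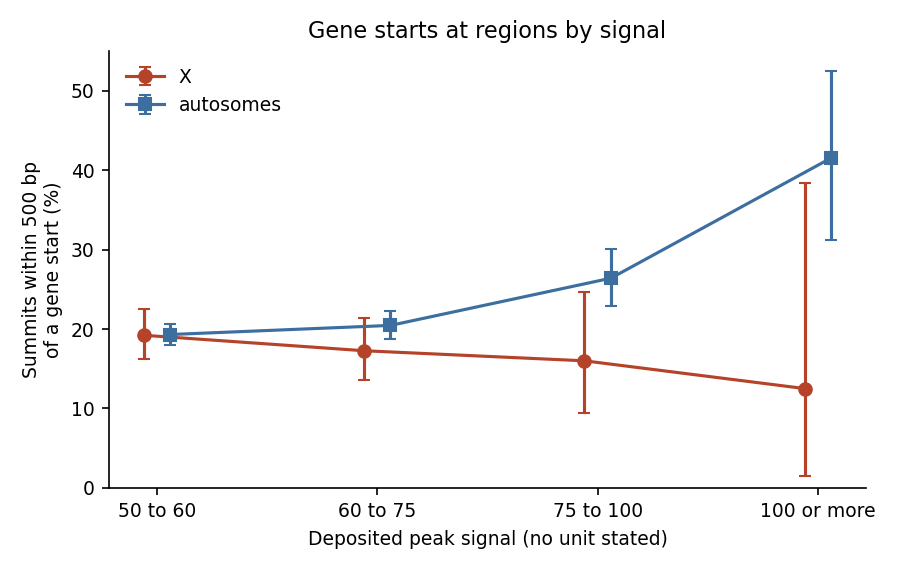
Share of summits within 500 bp of a protein-coding gene start (vertical axis, percent) in 4 classes of deposited signal (horizontal axis), for X (red circles) and autosomes (blue squares), with exact 95% intervals. The classes hold 645, 388, 100 and 16 regions on X. Autosomal shares climb to 41.6% in the highest class, where X stands at 12.5% with a wide interval.

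Base composition was measured in 100 bp around each summit. GC content averaged 42.2 ± 8.46% on X (SD, n = 1149 regions), against 42.9 ± 8.51% on the autosomes (SD, n = 6026), whose chromosome means ran between 42.3 and 43.5%. Flanking sequence 300 to 400 bp from X summits averaged 38.1%, weaker ranked regions on X 38.3 ± 8.17%, and the whole X chromosome 35.2%. Strong X summits were thus richer in GC than their surroundings, by an amount smaller than the SD between regions. Bases that the reference marks as repeats made up 16.2% of the windows at X summits, the lowest of the 6 chromosomes, against 18 to 22.54% on the autosomes. They made up 22.2% at weaker X regions and 30.6% of the whole X.

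The word CGCAGGG was searched on both strands in 100 bp around each summit. It occurred at 11 of 1149 X regions (0.957%, interval 0.479 to 1.71%) and at 25 of 6026 autosomal regions (0.415%, 0.269 to 0.612%), intervals that overlap. Without replicate 1 it occurred at 6 of 1134 X regions (0.529%) and at 14 of 6041 autosomal ones (0.232%), and without replicate 2 at 12 of 1184 X regions (1.01%) and at 18 of 5991 autosomal ones (0.300%). Weaker ranked regions held it at 0.199% on X and 0.222% on the autosomes. By signal, the X share was 0.465% for 50 to 60, 0.515% for 60 to 75 and 2.00% for 75 to 100. At 100 or more it was 4 of 16 (25%, 7.27 to 52.4%), against 1 of 89 on the autosomes (1.12%, 0.0284 to 6.10%). The 4 are the regions of ranks 1, 2, 3 and 13 whose sequences are printed above. The word was chosen with earlier results of these data known, and the classes divide the signal that the rule used. These shares are thus a description only. They rest on few regions, and how the tagged protein came to these places was not tested.

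**Figure D4:**
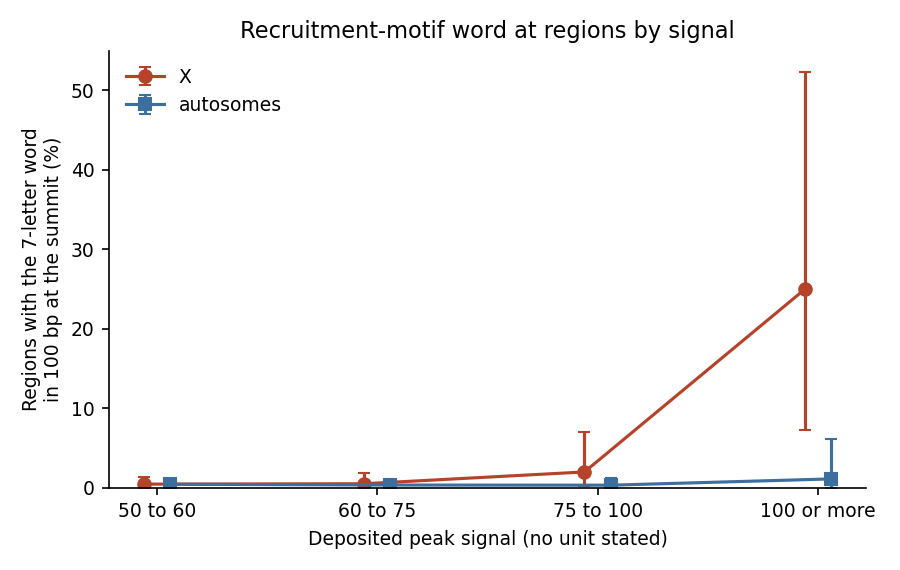
Share of regions that hold the 7-letter word of the recruitment motif on either strand within 100 bp centred on the summit (vertical axis, percent) in 4 classes of deposited signal (horizontal axis), for X (red circles) and autosomes (blue squares), with exact 95% intervals. The shares lie at or under 2.00% in the lower 3 classes on both, and the highest class stands at 25% on X (4 of 16) and 1.12% on the autosomes (1 of 89).

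After the sequences of the strongest regions had been seen, GCGNAGGG, the longer word CGCGCAGGG and the word ATCAATAC were added. GCGNAGGG occurred at 13 X regions (1.13%, interval 0.604 to 1.93%) and at 27 autosomal ones (0.448%, 0.296 to 0.651%). CGCGCAGGG, which contains CGCAGGG, occurred at 4 X regions and at none of the 6026 autosomal ones, which allows a share of up to 0.0498%. None of the 6525 weaker X regions held it, which allows up to 0.046%, and 3 of 29688 weaker autosomal regions did. ATCAATAC occurred at 9 X regions (0.783%, 0.359 to 1.48%) and at 26 autosomal ones (0.431%, 0.282 to 0.632%), and 2 of the 16 strongest X regions, those of ranks 1 and 3, hold it beside the recruitment word. The F55G7.5 region, rank 22, holds it beside GCGNAGGG. Because these words were read off the same regions, their shares on X are no independent evidence.

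Seen from the chromosome, CGCGCAGGG stood at 33 places on X (1.86 per Mb) and at 44 on the autosomes (0.533 per Mb). On X, 5 of the 33 places lay within 50 bp of a strong summit (15.2%, interval 5.11 to 31.9%), and on the autosomes 0 of 44 did, which allows up to 6.82%. The X interval includes that limit. Since CGCGCAGGG was read off strong X regions, its nearness to X summits is a description only. The shorter CGCAGGG was about as dense on X as on the autosomes, with 16.99 places per Mb on X and 16.1 on the autosomes. Of its places, 13 of 301 on X (4.32%, 2.32 to 7.27%) and 25 of 1329 on the autosomes (1.88%, 1.22 to 2.76%) lay within 50 bp of a strong summit. Most places of both words on X therefore had no strong summit within that distance.

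Taking CGCAGGG and GCGNAGGG together, 17 X regions held at least 1 of them. Their signals of 53.7 to 197.8 are given as a description only, since GCGNAGGG was read off strong regions. Of these 17, 9 had a signal of 75 or more and 6 were in the thresholded list of the replicate comparison. 6 were intergenic, 4 in coding sequence, 3 in introns, 3 within 500 bp after a gene and 1 within 500 bp before one. The single summit at a gene start lay 218 bp upstream of wrt-6, a hedgehog-related gene (58.33). An entry of replicate 1 held the summit of all 17 and entries of both replicates that of 12, beside 85.2% and 62.5% of all X summits. Of the 12, 9 were higher in replicate 1, beside 67.7% of all X regions held in both. The gtr-1 region had 58.7 in replicate 1 and 26.76 in replicate 2, and the fbxb-58 region 63.27 in replicate 1 and 35.84 in replicate 2. Those in coding sequence lay in pks-1, a polyketide synthase gene (76.38), spin-3 (67.83), the collagen gene col-183 (64.77) and C45B2.6 (56.11).

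For 3 of the remaining words the intervals of X and autosomes overlapped. GAGAGA occurred at 8.18% of X regions and 7.48% of autosomal ones. CGCGCA occurred at 2.79% of X regions and 2.22% of autosomal ones. For TGATAA, the site of the gut transcription factor ELT-2, the shares were 7.75% on X and 6.85% on the autosomes. The E-box CACGTG, the site of Max-like bHLH proteins, had a smaller share on X, at 19 regions (1.65%, interval 0.998 to 2.57%), against 186 autosomal ones (3.09%, 2.66 to 3.56%). Weaker regions held it at 1.46% on X and 2.16% on the autosomes. None of the 16 strongest X regions held it, which allows up to 18.8%, and 5 of the 89 strongest autosomal ones did.

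A list of 29 genes for dosage compensation and sex determination has 7 members on X and 22 on the autosomes. Of the 7, 1, fox-1, held a strong summit or was the nearest start to one within 1000 bp, as did 8 of the 22. By the same rule 25.8 percent of all X protein-coding genes and 24.6 percent of all autosomal ones had a region. Its strongest had 52.3 in replicate 1 and 44.26 in replicate 2. The strong summit closest to ceh-39, a ONECUT homeobox gene that acts as an X signal element, lay 1422 bp from the gene with a signal of 59.1. The one closest to the nuclear receptor gene sex-1, another X signal element, lay 1552 bp away with 50.93. For sdc-1 and sdc-2, which encode dosage compensation proteins, the closest lay 4800 bp away (72.03) and 5775 bp away (66.9). The proneural gene lin-32, also placed in that list, had its closest at 4248 bp (53.73).

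A larger share of X regions than of autosomal ones stood beside noncoding genes. Within 100 bp of 239 X regions (20.8%, interval 18.5 to 23.3%) lay a noncoding gene other than a pseudogene, against 684 autosomal regions (11.4%, 10.6 to 12.2%). Weaker ranked regions stood at 15.4% on X and 11.4% on the autosomes. Most were genes of the broad Ensembl class ncRNA, at 215 X regions (18.7%, 16.5 to 21.1%) and 454 autosomal ones (7.53%, 6.88 to 8.23%). X carries 2520 of the 7764 genes of that class (32.5%), and the part of gene content in these shares was not tested. The strongest of them lay at ftt-2 (144.4), C30E1.9 (121.8), C18A11.13 near xol-1 (114.8) and T10E10.8 at col-171 (111.6).

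**Figure D5:**
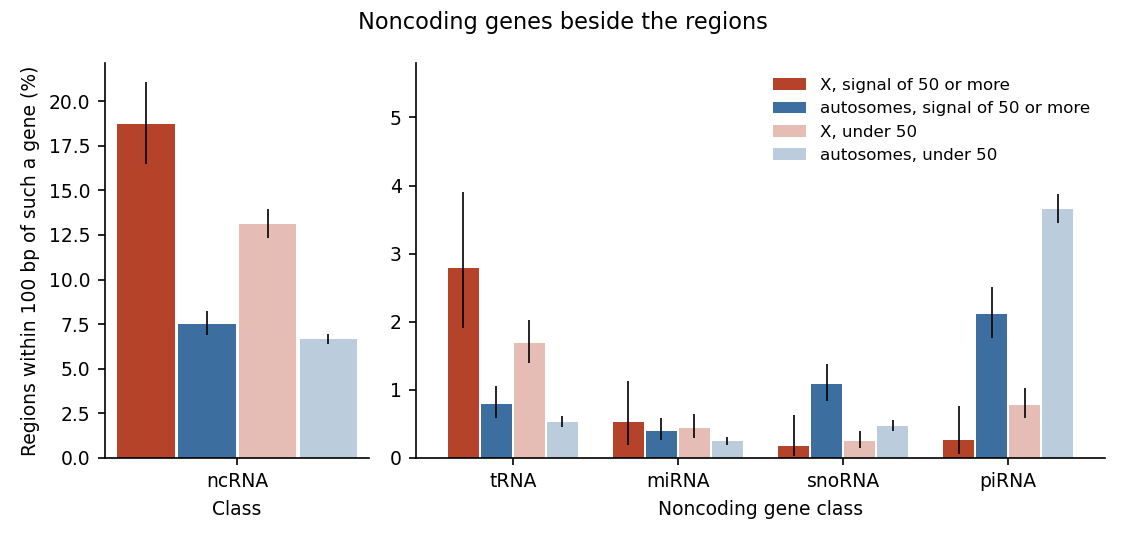
Share of regions with a gene of each noncoding class within 100 bp (vertical axes, percent, with a larger scale for ncRNA on the left). Dark bars are regions with a signal of 50 or more and pale bars ranked regions under 50, X in red and autosomes in blue; error bars are exact 95% intervals. ncRNA genes stand at 18.7% on X and 7.53% on the autosomes, tRNA genes at 2.79% on X and 0.797% on the autosomes, and piRNA genes at 0.261% on X and 2.11% on the autosomes.

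tRNA genes, which RNA polymerase III transcribes, lay beside 32 X regions (2.79%, interval 1.91 to 3.91%), against 48 autosomal ones (0.797%, 0.588 to 1.06%). X carries 276 of the 612 annotated tRNA genes (45.1%), and weaker ranked regions stood beside them at 1.69% on X and 0.526% on the autosomes. The strongest lay 4814 bp upstream of xol-1, followed by regions near ZK899.6 (86.53), col-181 (82.26) and C04A11.5 (81.97). These had 54.15, 51.43 and 45.55 in replicate 1, and 29.15, 26.43 and 32.79 in replicate 2.

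The snoRNA and piRNA classes, with few genes on X, had smaller shares on X. snoRNA genes, which guide RNA modification, lay beside 2 X regions (0.174%) and 65 autosomal ones (1.08%), and X carries 33 of 346 of them. piRNA genes lay beside 3 X regions (0.261%) and 127 autosomal ones (2.11%), and X carries 1.05% of them. snRNA genes lay beside none of the 1149 X regions, which allows up to 0.261%, and beside 11 autosomal ones (0.183%), and X carries 3 of 129. The autosomal share lies under that limit, so a smaller snRNA share on X is not shown. Antisense RNA genes, of which X carries 7 of 100, lay beside 4 X regions (0.348%) and 17 autosomal ones (0.282%), and lincRNA genes beside 3 X regions (0.261%) and 24 autosomal ones (0.398%).

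Genes for microRNAs, short regulators of messenger RNA, lay beside 6 X regions (0.522%, interval 0.192 to 1.13%), against 24 autosomal ones (0.398%, 0.255 to 0.592%). The strongest stood at mir-73 and mir-74 together with linc-150 (79.52), with 49.76 in replicate 1 and 19.94 in replicate 2. The next stood at the mir-54, mir-55 and mir-56 cluster in an intron of F09A5.3 (77.86), with 52.7 in replicate 1 and 51.23 in replicate 2. It was also in both series-level thresholded lists. The gene of let-7, the microRNA of the larva-to-adult transition, had a summit with 68.08, against 40.79 in replicate 1 and 25.34 in replicate 2. mir-239a (69.45), mir-784 (58.39) and mir-62 (52.72) were the others. No entry of either replicate's own list held the mir-239a summit. The mir-784 and mir-62 summits had 33.1 and 40.33 in replicate 1, and no entry of replicate 2's own list held them.

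Of the 2731 protein-coding genes on X, 705 held a strong summit or had the nearest start to one within 1000 bp. This is the 25.8 percent given above, beside 24.6 percent of autosomal protein-coding genes (4237 of 17242), and the counts for gene lists are read against it. Genes with a region were longer, with a median of 4109 bp on X, against 2188 bp for X genes without one. Most regions per gene were found in lin-14, with 6 (54.92 to 85.16), and in gap-2, a Ras GTPase-activating protein gene, and rbc-1, a rabconnectin gene, with 5 each. These genes span 20312, 43985 and 13490 bp.

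Among heterochronic genes, which time larval cell fates, 5 of 6 on X had a region (83.3%, interval 35.9 to 99.6%), against 10 of 12 on the autosomes (83.3%, 51.6 to 97.9%). These X genes are long, with a median of 8158 bp, against 2548 bp for all X protein-coding genes. lin-14, a transcription factor gene of early larval fates, had its strongest in an intron with 85.16 in the joined list. An entry of replicate 2 at 54.21 held that summit, and no entry of replicate 1's own list did. The region overlaps the thresholded list of the replicate comparison. ain-1, which encodes a GW182-type partner of microRNA Argonautes, had 84.39 at 962 bp upstream of its start, with 46.54 in replicate 1 and 43.7 in replicate 2. The nuclear receptor gene daf-12 had 72.79, the casein kinase gene kin-20 72.3 and the Argonaute gene alg-1 57.7, all within the gene.

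Nuclear hormone receptor genes on X had a region in 12 of 23 cases (52.2%, interval 30.6 to 73.2%), against 51 of 246 on the autosomes (20.7%, 15.8 to 26.3%). The strongest were 967 bp upstream of nhr-48 (85.78), 286 bp downstream of the start of nhr-28 (77.63), and in nhr-1 (76.7), nhr-27 (75.32) and nhr-40 (68.97), with nhr-120 at 70.14. The X members had a median length of 4483 bp, above the 2548 bp of all X protein-coding genes. They were not compared in length with the autosomal members, so the part of gene length in this difference was not tested. nhr-27 spans 102756 bp and held 4 regions, and its strongest summit also lies in pgp-13.

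Neuronal genes had a region in 15 of 28 cases on X (53.6%, interval 33.9 to 72.5%), against 33 of 68 on the autosomes (48.5%, 36.2 to 61.0%). The strongest were in introns of nlg-1 (neuroligin, 88.96), lin-2 (a CASK scaffold, 87.02), dop-1 (a dopamine receptor, 83.63), unc-7 (an innexin, 79.34), unc-1 (a stomatin, 72.79) and unc-2 (a calcium channel, 68.82). The neuronal genes on X had a median length of 6924 bp. In nlg-1 the replicates were far apart, with 66.69 in replicate 1 and 20.92 in replicate 2, whereas lin-2 had 39.97 in replicate 1 and 37.47 in replicate 2. Neuropeptide genes, which are short, stood at 9 of 34 on X and 28 of 106 on the autosomes, near the share of all genes, with ins-39 (67.6), nlp-61 (67.18) and flp-32 (66.12) the strongest.

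Genes of hypodermis and seam cells had a region in 7 of 9 cases on X, against 21 of 38 on the autosomes. The junction gene ajm-1 had 85.83 and the Schnurri-type zinc finger gene sma-9 68.11, both in coding sequence, followed by dpy-8 (58.54), wrt-2 (55.78), the GATA factor gene elt-3 (54.67) and dpy-3 (50.79). Collagen genes stood at 7 of 27 on X (25.9%) and 46 of 129 on the autosomes (35.7%). Below col-171 came col-174 (83.94) and col-172 (70.81). Body wall muscle genes had a region in 6 of 17 cases on X (35.3%, interval 14.2 to 61.7%), against 26 of 45 on the autosomes (57.8%, 42.2 to 72.3%). They were unc-96 (93.64), the actin gene act-4 (75.1), the myosin light chain genes mlc-1 (67.97) and mlc-2 (55.82), the collagen IV gene let-2 (59.8) and unc-97 (59.72).

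Other lists were small on X. Intestinal genes stood at 3 of 16 (18.8%), against 14 of 39 on the autosomes, with asp-4, a cathepsin-type protease gene (71.66), ifc-2 (69.13) and the peptide transporter gene pept-1 (67.89). None of the 5 vitellogenin genes on X had a region, nor had the 1 on an autosome. Pharyngeal genes stood at 2 of 4, with the pharyngeal myosin gene myo-2 (58.9) and marg-1 (58.44), and homeobox genes at 5 of 18, against 12 of 45 on the autosomes. No entry of either replicate's own list held the myo-2 summit. All 3 heat shock genes on X had a region (interval 29.2 to 100%), against 7 of 17 on the autosomes (41.2%, 18.4 to 67.1%). They were hsp-25 with 69.37, hsp-3, the BiP chaperone gene, with 61.35 and hsp-43 with 52.67. TWK potassium channel genes stood at 1 of 10, twk-26 (57.94), acetylcholine receptor genes at 2 of 6, acr-2 (63.57) and acr-8 (52.98), C-type lectin genes at 2 of 3 and ribosomal protein genes at 1 of 2, rpl-25.1 (69.05). No gene of the germline list lies on X.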

How the data were processed

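Anti-GFP ChIP-seq of 2 biological replicates of whole larvae was used as 8 deposited peak lists on assembly ce11, per the text notes deposited beside the files. For the aligner and the peak caller, name and settings: not given in the sources used here. The deposited signal of each peak is the authors' own value, with no stated unit. The −log10 q-value of each peak, as deposited, was read by its place in columns without a header, and printed q-values are computed from it. No file gives read counts, so the depth is unknown. The lists come in ranked and thresholded form for the comparison of replicates, for the pooled data and for each replicate. A further 4 columns of paired signals in the series-level ranked lists were not used, since no label ties them to a sample.

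Entries with a signal of 50 or more were merged where they overlapped. The signal of a replicate is that of the highest entry of its own ranked list that holds the summit. Gene models came from Ensembl release 115 (WBcel235, the same sequence as ce11) and sequence from the RefSeq copy. Coordinates count from 1. Features were assigned in the order coding sequence, 5′ UTR, 3′ UTR, intron, then within 500 bp before or after a gene. Regions under the minimum are merged ranked regions without a strong region. Python 3.11.15, numpy 2.4.6, pandas 2.3.3 and scipy 1.17.1 were used, and merging and annotation were checked on simulated data. Genes were named by a rule: those of the 25 strongest X regions, of X regions in a thresholded list, of the 3 nearest to the minimum on each side, up to 6 members of each of the 18 gene lists, up to 4 regions per noncoding class and all at microRNA genes, and the densest stretches. Genes at words, at dosage compensation loci and with most regions were chosen after their values were seen. The members, the lists and the words were chosen with earlier results of these data known. Alternatives covered the signal minimum, the list, the merging, the windows and each replicate on its own.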

Additional observations from a re-analysis of the deposited data

How the results depend on the processing

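Over 64 alternative values of 7 measures of the X regions, 33 stayed within the 95% interval of the value reported, and the cause was not tested for any of the others. For mean GC that interval (41.88 to 42.45%) treats single bases as independent counts, and for the median distance it runs between 1709 and 2030 bp. Some alternatives, such as other start windows, change what is measured, so the count of 33 is a description only. No paired analysis was possible because the study has 1 group. A signal minimum of 40 gave a mean GC of 41.2% and a noncoding gene share of 17.5%. A minimum of 75 (116 X regions) gave an X share of 14.4%, a gene start share of 15.5%, a median distance of 2120 bp, a GC of 45.2%, a noncoding share of 32.8%, a middle part share of 26.7% and a CGCAGGG share of 5.17%. A minimum of 100 (16 X regions) gave 12.5% at starts, 2061 bp, 44.8% GC, 37.5% noncoding, 37.5% in the middle part and 25% with CGCAGGG. Thresholded entries alone (31 X regions) gave an X share of 14.6%, 12.9% at starts, 1658 bp, 46% GC, 25.8% noncoding and 12.9% with CGCAGGG. Starts within 250 bp were at 8.70% and within 1000 bp at 31.1%; all transcript starts gave 22.4% and a median of 1448 bp. A window of 200 bp gave 41.9% GC and 2.00% with CGCAGGG, a summit inside the noncoding gene 7.05%, and the middle 2 of 4 parts 47%. Each replicate's own list, cut to the same 7175 regions, gave X shares of 15.8 to 16.5%, gene start shares of 17.02 to 18.33%, medians of 1827 to 1898 bp, GC of 41.3 to 41.4%, noncoding shares of 21.69 to 22.04%, middle part shares of 31.2 to 32.9% and CGCAGGG shares of 0.529% without replicate 1 to 1.01% without replicate 2. Intergenic summits stayed more frequent on X than on the autosomes under all 8 settings of the list, the lowest X share being 23.7% without replicate 2, against 15.7%. The CGCAGGG alternatives were chosen after seeing the data.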
